A study of Homo sapiens with 60 samples.

Results

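The genes described here encode the subunits, activators, inhibitor and assembly factors of the human proteasome. They were taken as the rows of the gene count table whose symbol begins with PSM, followed by a letter from A to G and a number. The rule found 48 genes among the 29744 of the table: 19 of the core particle (PSMA and PSMB), 24 of the regulatory particles (PSMC, PSMD and PSME) and 5 that encode an inhibitor or assembly chaperones (PSMF1 and PSMG). Of these, 45 passed the filter on low counts that was applied to all genes. The rule used names alone and no measured value.

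The proteasome is the barrel-shaped protease that degrades proteins marked with ubiquitin chains in the cytosol and nucleus. Outer alpha rings guard the entrance, inner beta rings hold the protease sites, and a regulatory particle with a ring of ATPases unfolds the substrate after ubiquitin receptors have bound it. Interferon-gamma is known to replace the catalytic beta subunits by the immunoproteasome subunits PSMB8, PSMB9 and PSMB10, which favours peptides for antigen presentation.

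RNA was counted at the 3' ends of transcripts, with unique molecular identifiers, in spheroids grown from HCT116, a line of human colorectal cancer cells. The design asked how compounds linked to red meat, together with nutrient deprivation, affect these cells. In each of 2 media the spheroids received hemin and kynurenine together, 1 µM kynurenic acid, 1 µM kynurenine, 0.1 µM hemin, 1 µM butyrate or nothing, with 5 libraries in each of the 12 groups. Compounds were present from day 1 to day 8. Untreated spheroids carried no added compound, and all groups were of the same single cell line. According to the design, spheroids were sampled at once or after 3 h in a nutrient-deprived medium. The labels name the media Medium 2 and Medium 1 without saying which was the deprived condition, so those names are kept. Groups follow the sample titles, because the treatment label reads untreated and nutrient-rich for every library. The hemin dose in the combined exposure is not given in its title. Libraries are named by their well. Wells A1 to F4 held Medium 1 and wells G4 to D8 Medium 2, so plate position and medium cannot be told apart. Each group filled 5 wells in sequence, so position and exposure within a medium cannot be told apart either.

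Library totals ran from 1346135 to 3083231 counts, with a median of 1901981. Of 10 markers of colorectal epithelium, the highest in Medium 2 was EPCAM at 377 ± 41.4 CPM (counts divided by scaled library totals), against 366 ± 27.01 CPM in Medium 1 (SD, n = 30 each). VIL1 was at 0 in every library. KRT20, LGALS4 and CLDN3 were close to absent, with means of 1.56, 0.014 and 1.17 CPM in Medium 2 and 1.47, 0.028 and 2.55 CPM in Medium 1. Of the 6 markers tested, KRT8 and CDH1 were higher in Medium 2 (log2 0.17 and 0.26) and KRT19 and CLDN4 lower (log2 -0.22 and -0.12). KRT19 averaged 335 ± 43.995 CPM in Medium 2 and 391 ± 68.2 CPM in Medium 1. The summed level of 12 markers of fibroblasts, blood and endothelium, 10 of them in the table, ran from 2.61 to 10.5 CPM in Medium 2 and from 6.11 to 18 CPM in Medium 1, and most of it was COL1A1. CD3E, COL1A2 and LUM were at 0 throughout. In bulk RNA a difference per cell and a difference in the share of cells cannot be told apart.

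Proteasome genes were abundant in all 12 groups. The tested and untested members together made up 9163 ± 694 CPM in Medium 2, with a lowest, median and highest library of 8164, 9070 and 11000 CPM, against 8495 ± 448 CPM in Medium 1, with 7581, 8405 and 9731 CPM (SD, n = 30 each). The ranges of the media overlapped. In this assay a transcript is counted by its end, so levels of different genes can be set side by side without division by length. PSMB5, the beta subunit with chymotrypsin-like activity, averaged 614 ± 67.6 CPM in Medium 2 and 503 ± 66.6 CPM in Medium 1. PSMA7, an alpha-ring subunit, averaged 591 ± 88.6 CPM in Medium 2 and 558 ± 75.4 CPM in Medium 1. These were the 2 most abundant members, and whether they differed from each other within a medium was not tested. At the other end stood the immunoproteasome. PSMB10 averaged 23.2 ± 7.29 CPM in Medium 2 and 24.2 ± 8.04 CPM in Medium 1. PSMB9 averaged 14.8 ± 4.46 CPM in Medium 2 and 13.9 ± 2.54 CPM in Medium 1.

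The 3 members that were not tested were close to absent. PSMB8, the third immunoproteasome catalytic subunit, had 60 counts in all, in 32 of 60 libraries and at most 6 in any. PSMB11, the beta subunit of the thymus, had 3 counts in all. PSMA8, an alpha subunit of the testis, had 1 count, and a total of 3 counts over all libraries would amount to 0.0256 CPM.

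The comparison of Medium 2 with Medium 1, averaged over the 6 treatments, showed small rises spread over the proteasome and no falls. Of the 45 tested members, 16 were higher in Medium 2 and 0 lower by edgeR's quasi-likelihood test at an adjusted p below 0.05. Over all 11298 tested genes, 22.7% were higher and 23.3% lower. The members' median log2 fold change was 0.11, with a range from -0.11 to 0.30, against a median of -0.0045 over all tested genes. At an unadjusted p below 0.05, 19 of the 45 members were higher and none lower, where 5955 of the 11298 tested genes passed in either direction. DESeq2 gave 16 higher and 0 lower members. Counted by group, 7 of 16 tested core members and 7 of 24 regulatory members rose.

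**Figure D1:**
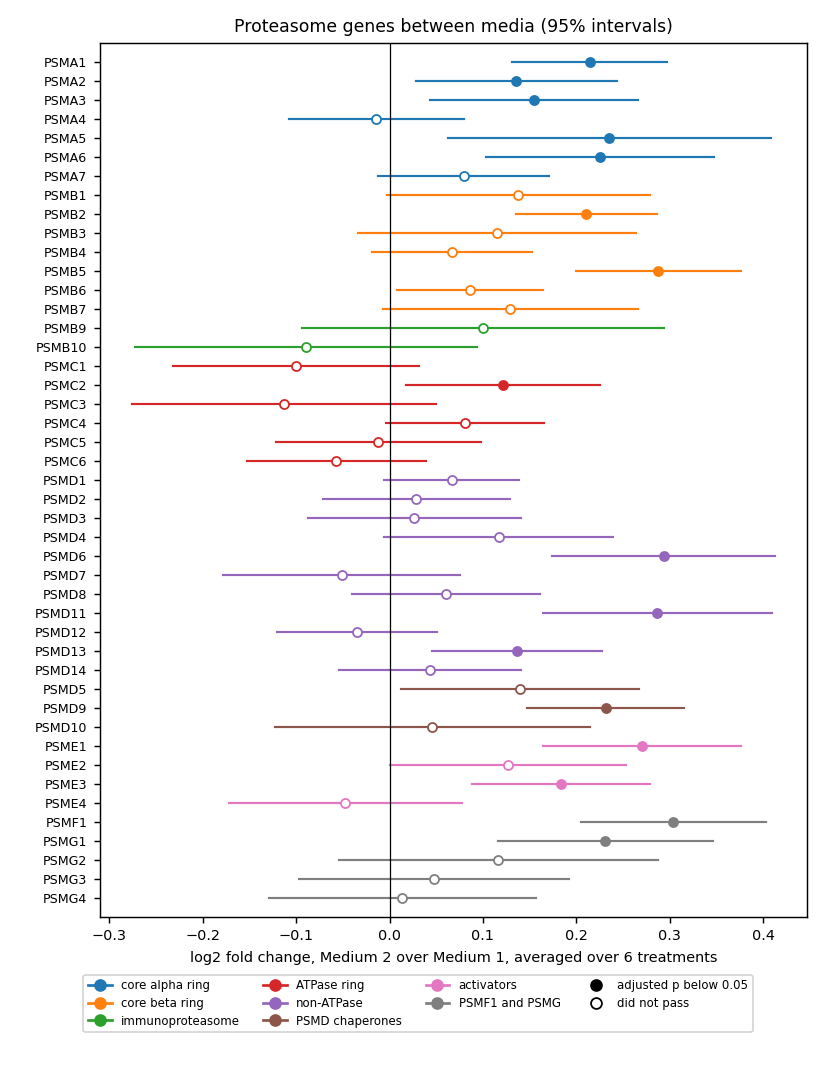
Log2 fold change of each tested proteasome gene, Medium 2 over Medium 1 averaged over the 6 treatments, with its 95% interval. Genes are ordered and coloured by role, filled points passed the adjusted threshold of 0.05, and the 16 filled points all lie to the right of 0.

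Among the alpha-ring genes 5 of 7 rose, namely PSMA1, PSMA2, PSMA3, PSMA5 and PSMA6. PSMA1, which had the smallest p of the ring, had a lowest, median and highest value of 275, 380.4 and 451 CPM in Medium 2, against 262, 323 and 398 CPM in Medium 1. Its log2 fold change was 0.21 (SE 0.042, adjusted p = 2.13e-05), and the media overlapped. PSMA4 and PSMA7 had log2 fold changes of -0.01 and 0.08 and did not pass.

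Of the 7 constitutive beta-ring genes, PSMB2 and PSMB5 rose. PSMB5 (chr14:23025851-23035220, GRCh38.p14) ranged in CPM from 478 over a median of 618 to 756 in Medium 2, against 365, 517 and 605 in Medium 1. Its log2 fold change was 0.29 (SE 0.044, adjusted p = 2.02e-07), or 1.22-fold. PSMB2 rose by log2 0.21 (SE 0.038, adjusted p = 5.24e-06), and the remaining 5 beta genes lay between 0.07 and 0.14 without passing. The 2 tested immunoproteasome genes did not pass. PSMB9 (chr6:32854192-32859851) ran from 6.44 over 15.9 to 26.3 CPM in Medium 2 and from 8.31 over 13.7 to 19.7 CPM in Medium 1, a log2 fold change of 0.10 with a 95% interval from -0.09 to 0.29 (adjusted p = 0.415). PSMB10 had 12.8, 20.996 and 43.2 CPM in Medium 2 and 14.3, 22.6 and 48.1 CPM in Medium 1, a log2 difference of -0.09 (SE 0.092, adjusted p = 0.44), which turned to 0.0042 when the GC slope of each library, described with the hemin groups, was a term.

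The regulatory particle was more divided. Only 1 of the 6 ATPase genes, PSMC2, passed, at a log2 difference of 0.12 (SE 0.052, adjusted p = 0.0482). Its lowest, median and highest values were 88.5, 122 and 164 CPM in Medium 2 and 91.6, 117 and 138 CPM in Medium 1. This call was lost in 20 of the 60 fits that left out a library. The other 5 ATPase genes lay between -0.11 and 0.08.

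Of the 11 non-ATPase subunits, PSMD6, PSMD11 and PSMD13, which all sit in the lid that holds the deubiquitinase, rose by log2 0.29, 0.29 and 0.14. PSMD6 (chr3:64010551-64024007) had 102, 133 and 174 CPM as its lowest, median and highest values in Medium 2, against 70.1, 106 and 151 CPM in Medium 1 (SE 0.060, adjusted p = 4.23e-05). PSMD14, the deubiquitinase itself, had 114, 159.9 and 211 CPM in Medium 2 and 114, 152 and 191 CPM in Medium 1. It differed by log2 0.04 (95% interval -0.05 to 0.14, adjusted p = 0.483). The ubiquitin receptor PSMD4 had 218, 303 and 460.0 CPM in Medium 2 and 207, 250.4 and 463 CPM in Medium 1, a log2 difference of 0.12 (SE 0.061, adjusted p = 0.111). It passed without the butyrate library of well B2, with an adjusted p of 0.0312.

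The remaining rises were in activators, assembly factors and the inhibitor. PSME1, which forms an activator ring with PSME2, had a lowest, median and highest value of 169, 214 and 273 CPM in Medium 2 and 121, 184 and 232 CPM in Medium 1. Its log2 fold change was 0.27 (SE 0.053, adjusted p = 2.36e-05). PSME2 had 72.0, 91.8 and 151 CPM in Medium 2 and 58.98, 89.1 and 119.8 CPM in Medium 1, and did not pass at 0.13 (SE 0.063, adjusted p = 0.0922). The nuclear activator PSME3 rose by 0.18 (adjusted p = 0.00109), whereas PSME4, another nuclear activator, had -0.05 (adjusted p = 0.558). Whether PSME1 and PSME2 differed from each other was not tested. 

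PSMD9, a chaperone in the assembly of the ATPase ring, ran from 130.3 over 158 to 211 CPM in Medium 2 and from 109.7 over 137 to 161 CPM in Medium 1, a rise of log2 0.23 (SE 0.042, adjusted p = 6.42e-06). PSMG1, which works with PSMG2 in building the alpha ring, rose by 0.23 (adjusted p = 0.00072). PSMG2, PSMG3 and PSMG4 had 0.12, 0.05 and 0.01 and did not pass. PSMF1 (chr20:1113263-1172246), first described as an inhibitor of the core particle, had the largest point estimate of the 45, 0.30 (SE 0.050, adjusted p = 7.95e-07). Its libraries ran from 80.1 over 109 to 133 CPM in Medium 2 and from 65.1 over 87.2 to 123 CPM in Medium 1. PSMD9 and PSMF1 thus overlapped between media, with the median higher in Medium 2.

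**Figure D2:**
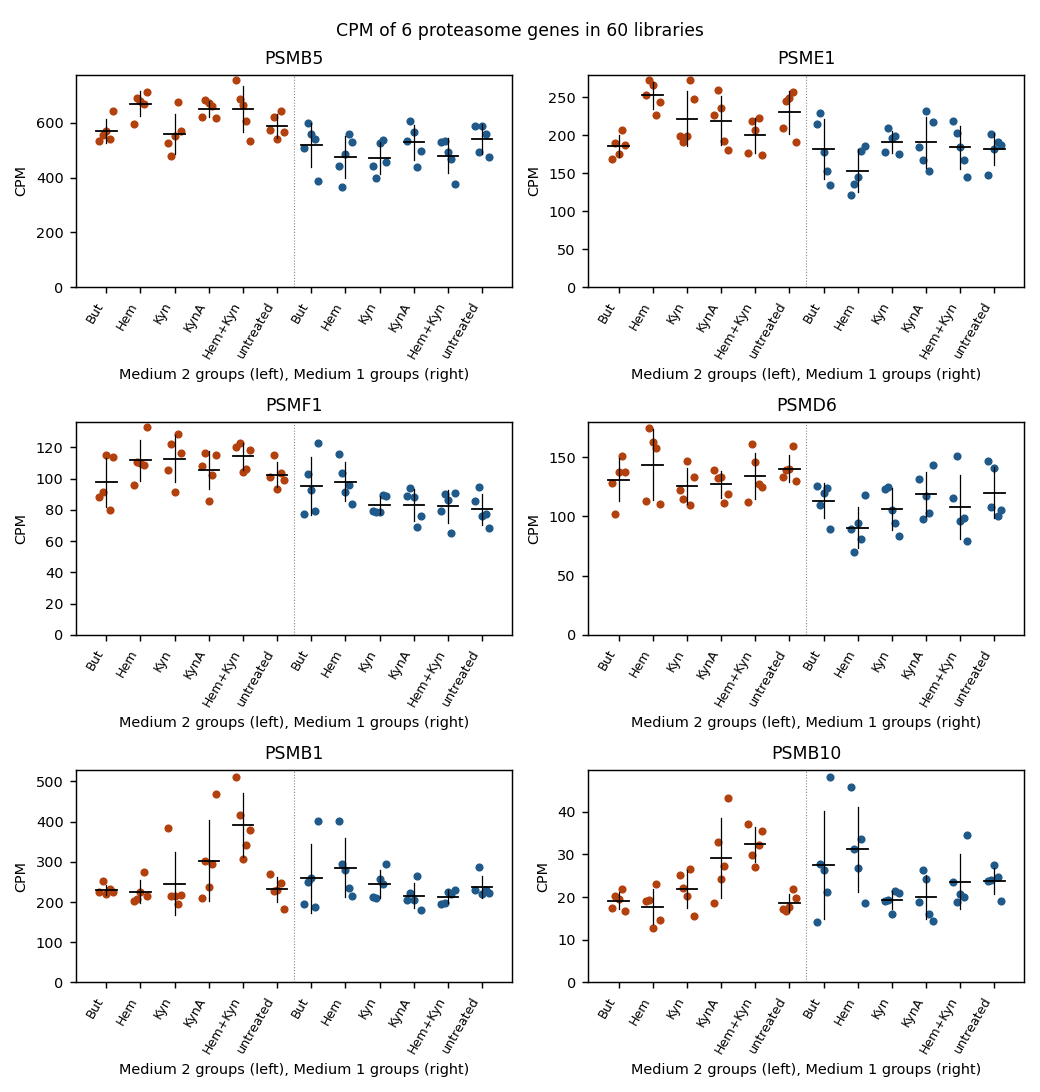
CPM of 6 proteasome genes in each of the 60 libraries, with Medium 2 groups left of the dotted line and Medium 1 groups right of it. Points are libraries, horizontal bars group means and vertical bars SD (n = 5). PSMB5 and PSMF1 overlap between media and have the higher mean in Medium 2 in each treatment, PSME1 and PSMD6 differ most in the hemin groups, and PSMB1 is highest in the Medium 2 group with hemin and kynurenine.

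Without an exposure, no member passed between the media. Among all tested genes 2.69% were higher and 3.68% lower in untreated Medium 2. In simulated data this comparison recovered only 1 of 100 genes changed by log2 0.3, so differences of that size could be missed. The median log2 fold change of the 45 members was 0.07, with 28 positive and 17 negative. At an unadjusted p below 0.05 there were 3 (PSMF1, PSME1 and PSMD11), beside 2161 of the 11298 tested genes. DESeq2 also passed no member. PSMF1 had 100.8, 115, 93.5, 103.7 and 99.0 CPM in the untreated libraries of Medium 2, against 85.8, 94.5, 75.8, 77.5 and 68.2 CPM in those of Medium 1. These groups overlapped by 1 library of each, and the log2 difference was 0.35 (SE 0.12, adjusted p = 0.0773). PSME1 had 209.6, 245, 249, 257 and 192 CPM in Medium 2 and 148, 201, 183, 191 and 188 CPM in Medium 1. The log2 fold change was 0.34 (SE 0.13, adjusted p = 0.11), 1 Medium 1 library lying above the lowest of Medium 2. PSMB5 had 573, 621, 540, 642 and 565 CPM in Medium 2 and 587, 494, 589, 559 and 475 CPM in Medium 1, so that its groups overlapped widely.

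The 6 medium comparisons rest on separate libraries, and the direction of a member could be followed through them. A positive log2 fold change in all 6 treatments was found for 11 of the 45 members, 24.4% of them, against 15% of all tested genes. These were PSMA1, PSMA6, PSMB2, PSMB5, PSMD6, PSMD9, PSMD11, PSME1, PSME3, PSMF1 and PSMG1. None was negative in all 6 or in 5 of them, whereas 16.4% of all tested genes were negative in all 6. PSMC1, PSMC3, PSMC6 and PSMD12 were positive in only 2 treatments, and 3 of these 4 are ATPases.

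**Figure D3:**
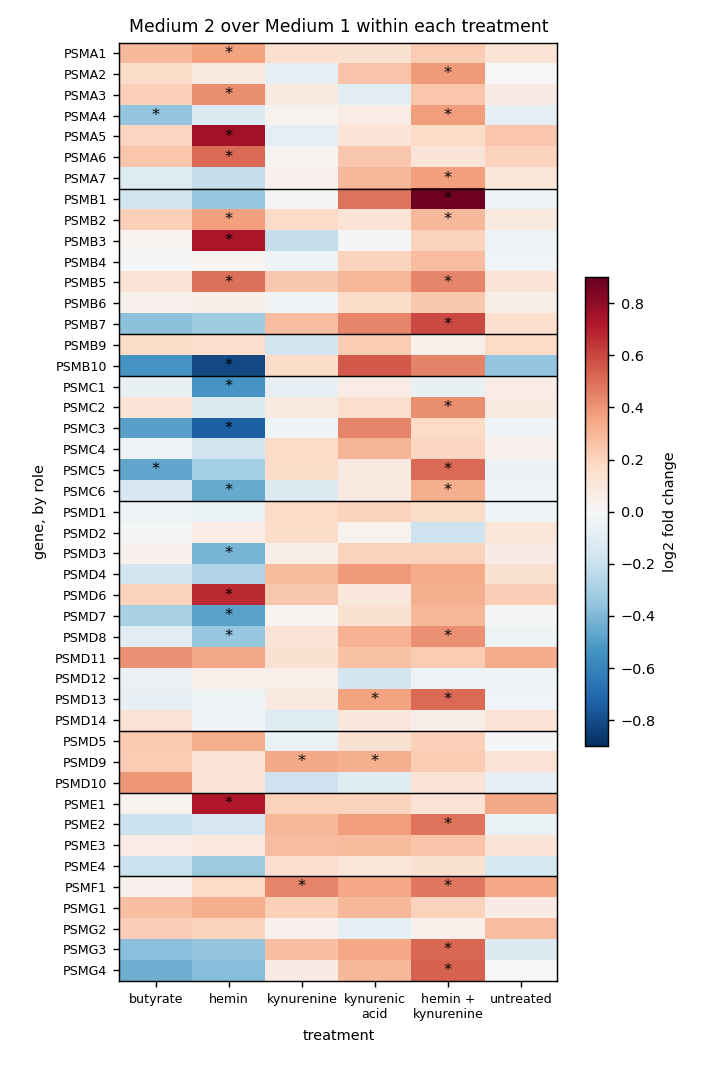
Log2 fold change of each tested proteasome gene, Medium 2 over Medium 1, within each of the 6 treatments. Rows are genes in blocks by role, colour gives the fold change, and an asterisk marks an adjusted p below 0.05. Calls are concentrated in the hemin column, where they go both ways, and in the column of hemin with kynurenine, where all 16 are positive.

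Under 3 of the exposures few members passed. With butyrate 0 were higher and 2 lower, PSMA4 at -0.35 and the ATPase PSMC5 at -0.47 (adjusted p = 0.0392 and 0.018), where 4.5% of all tested genes were higher and 5.34% lower. With kynurenine 2 were higher and 0 lower, PSMD9 at 0.34 and PSMF1 at 0.44 (adjusted p = 0.0263 and 0.0161), where 3.75% were higher and 4.28% lower. With kynurenic acid 2 were higher and 0 lower, PSMD9 at 0.33 and PSMD13 at 0.36 (adjusted p = 0.0346 and 0.0293), where 4.3% were higher and 4.31% lower. In the last group 40 of 45 members had a positive sign and the median was 0.20, against 0.0060 over all tested genes. Leaving out a library moved these counts to between 0 and 3 for butyrate, 1 and 3 for kynurenine and 0 and 4 for kynurenic acid. The libraries behind these shifts were wells G1, H1, B2, D5 and F5 for butyrate, D3 and G6 for kynurenine, and E3, G3, A4, C7, D7 and G7 for kynurenic acid. With the library GC slope as a term, 13 members passed under kynurenic acid and 0 under butyrate. The share of all tested genes that passed in that fit was not counted.

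Under hemin calls went both ways, among the members as among all tested genes. Of 45 members, 9 (20%) were higher and 7 (15.6%) lower in Medium 2, against 12.5% and 11.3% of all tested genes. The rises were in the core particle, in 4 of 7 alpha genes and 3 of 7 beta genes, with PSMD6 and PSME1 beside them. The falls were in PSMB10, 3 of 6 ATPases (PSMC1, PSMC3 and PSMC6) and 3 of 11 non-ATPase subunits (PSMD3, PSMD7 and PSMD8). All 6 ATPases had a negative sign, with a median of -0.38. Against untreated spheroids of the same medium, hemin had 1 member at an unadjusted p below 0.05 in Medium 2 and 22 in Medium 1. Of the 11298 tested genes there were 850 and 2422. The median log2 fold change of core members was -0.01 in Medium 2 and -0.17 in Medium 1, that of ATPases -0.06 and 0.33. No member passed the adjusted threshold with edgeR in either medium.

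PSME1 had 254, 272, 266, 227 and 245 CPM in the hemin libraries of Medium 2, against 121, 137, 146, 179 and 186 CPM in those of Medium 1. The groups did not overlap, and the log2 fold change was 0.72 (SE 0.13, adjusted p = 5.38e-05), or 1.65-fold. PSMA5 had 109, 98.1, 105, 101 and 128 CPM in Medium 2 and 70.1, 61.3, 81.2, 26.3 and 79.2 CPM in Medium 1. It was also higher in every Medium 2 library, at 0.75 (SE 0.21, adjusted p = 0.00778). PSMB3 had 98.3, 73.6, 104.7, 79.2 and 81.8 CPM in Medium 2 and 41.2, 48.4, 49.4, 40.95 and 82.9 CPM in Medium 1. The Medium 1 library of well G2 lay among those of Medium 2, and the log2 difference was 0.74 (SE 0.19, adjusted p = 0.00271).

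PSMD6 had 113, 174, 162, 158 and 110.1 CPM in Medium 2 and 89.6, 70.1, 94.2, 81.3 and 118 CPM in Medium 1. It rose by 0.67 (SE 0.15, adjusted p = 0.000644), with 1 Medium 1 library inside the Medium 2 range. PSMB5 had 596, 690, 681, 669 and 713 CPM in Medium 2 and 443, 365, 485, 559 and 528 CPM in Medium 1. It was higher in every Medium 2 library, by 0.49 (SE 0.11, adjusted p = 0.000635).

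The opposite order held for the ATPase PSMC3, with 59.4, 54.4, 40.9, 49.99 and 38.9 CPM in Medium 2 and 91.1, 97.2, 76.6, 86.8 and 53.9 CPM in Medium 1. It was lower by log2 -0.74 (SE 0.20, adjusted p = 0.00556), and the Medium 1 library of well G2 overlapped with Medium 2. PSMC1 had 328, 314, 306, 314 and 239 CPM in Medium 2 and 318, 575, 428, 534 and 313 CPM in Medium 1. The fall of -0.53 (SE 0.16, adjusted p = 0.0132) rested on 3 Medium 1 libraries at 428 CPM or more, and without well D2 or F2 it no longer passed. PSMB10 had 19.1, 19.2, 12.8, 23.03 and 14.6 CPM in Medium 2 and 45.7, 31.3, 26.8, 33.6 and 18.6 CPM in Medium 1, which put it lower by log2 -0.81 (SE 0.23, adjusted p = 0.0069). Without well C2 its adjusted p was 0.0547.

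The GC content of the transcript end moved with the direction of these calls. Over the last 300 transcript bases, the 9 higher members had a median GC content of 40% (range 30.7% to 50.7%) and the 7 lower members one of 53.7% (36.3% to 58%), where all 45 ran from 25.3% to 58%. Spearman's rho between GC content and log2 fold change was -0.359 across the 45 members and -0.12 across 10566 tested genes with a value. In the other medium comparisons the members' rho was -0.443 under butyrate, 0.275 under kynurenine and 0.56 under kynurenic acid. It was 0.193 under hemin with kynurenine and -0.143 between untreated groups, so a relation to GC content was not particular to hemin. Across all genes with a value rho was -0.212, 0.0598, 0.0125, 0.0316 and -0.0303 in the same order. These are descriptions across genes that share libraries. The slope of log2 CPM on GC content, per 10% GC, ran from -0.0224 to 0.0407 in the hemin libraries of Medium 2 and from 0.00296 to 0.171 in those of Medium 1. Totals were also lower, 1346135 to 1824740 counts in Medium 2 against 1563678 to 2545112 in Medium 1. With the GC slope as a term 8 members were higher and 5 lower. With log2 library total as a term 8 were higher and 0 lower. Leaving out a library gave 8 to 10 higher and 3 to 11 lower members, with wells C2, D2, F2 and G2 of Medium 1 moving the lower count by more than 1.5 times.

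**Figure D4:**
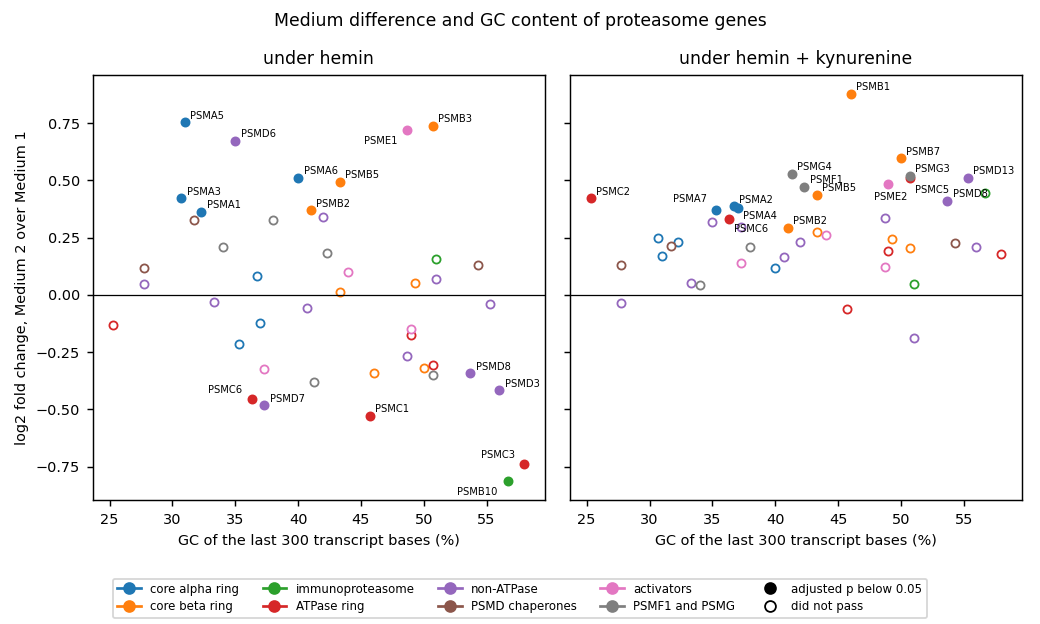
Log2 fold change of each tested proteasome gene, Medium 2 over Medium 1, against the GC content of its last 300 transcript bases, under hemin (left) and under hemin with kynurenine (right). Filled points passed and carry their symbol, and colours give the role. Under hemin the lower members lie mostly at the GC-rich side, and under hemin with kynurenine called members span the GC range.

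With hemin and kynurenine together, 16 of 45 members were higher in Medium 2 and 0 lower, against 7.98% and 8.31% of all tested genes. The members' median log2 fold change was 0.25 and 42 were positive, against a median of -0.0062 over all tested genes. The rises reached every large class, with 3 of 7 alpha genes, 4 of 7 beta genes, 3 of 6 ATPases, 2 of 11 non-ATPase subunits, 1 of 4 activators (PSME2) and 3 of the 5 PSMF1 and PSMG genes. PSMB2 and PSMB5 were also among the members higher in Medium 2 than in Medium 1 under hemin alone. How far calls overlapped over all tested genes was not counted, so no degree of sharing is read from this. The ATPase PSMC6 and the non-ATPase subunit PSMD8, both lower under hemin, were higher here.

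PSMB1, a beta subunit without a protease site, showed the largest difference. It had 512, 416, 308, 343 and 379.6 CPM in Medium 2 with hemin and kynurenine, against 194, 197, 226, 220.2 and 229 CPM in Medium 1 with both. The groups did not overlap, and the log2 difference was 0.88 (SE 0.17, adjusted p = 0.000224), or 1.84-fold. PSMD13 had 309, 271, 226, 199.7 and 225 CPM in Medium 2 and 208, 174, 164, 149 and 169 CPM in Medium 1. It rose by 0.51 (SE 0.11, adjusted p = 0.000819), with 1 library of each medium overlapping. PSMB5 had 756, 688, 665, 605 and 534 CPM in Medium 2 and 531, 533, 492, 468 and 377 CPM in Medium 1, without overlap (log2 fold change 0.44, SE 0.11, adjusted p = 0.00335).

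The same Medium 2 libraries were set against untreated Medium 2, the comparison that asks for the effect of the compounds. Each group filled its own run of wells, so exposure and plate position cannot be told apart here. PSMA4, PSMB1, PSMC6 and PSMD13 were higher and 0 members lower, where 0.31% of all tested genes were higher. The median over the 45 members was 0.20, against -0.0013 over all tested genes. PSMB1 had 512, 416, 308, 343 and 379.6 CPM with hemin and kynurenine, against 269, 228, 231, 248 and 182 CPM in untreated Medium 2. Every exposed library lay above every untreated one, with a rise of log2 0.76 (SE 0.17, adjusted p = 0.0211). PSMD13 had 309, 271, 226, 199.7 and 225 CPM exposed and 175, 182, 183, 174 and 169 CPM untreated, also without overlap (0.48, SE 0.11, adjusted p = 0.0271).

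The alpha-ring gene PSMA4 had 479, 500.4, 560.5, 547 and 441 CPM with hemin and kynurenine, against 368, 374, 386, 400.2 and 306 CPM in untreated Medium 2. It rose by 0.46 (SE 0.11, adjusted p = 0.0431) without overlap. The ATPase PSMC6 had 231, 188, 165, 159 and 196 CPM exposed and 143, 140.3, 122, 155 and 124 CPM untreated, and rose by 0.45 (SE 0.12, adjusted p = 0.0477), again without overlap. Summed over all members, the exposed libraries held 9781 to 10728 CPM and the untreated ones 8317 to 9122 CPM, with means of 10152 ± 446 and 8709 ± 354 (SD, n = 5 each).

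Depth moved with this group. Its totals ran from 2151092 to 2981625 counts, against 1617479 to 1934973 in untreated Medium 2 and 1820159 to 2147635 in Medium 1 with hemin and kynurenine, so the lowest exposed total exceeded the highest of either comparison group. With log2 library total as a term, 8 of the 16 calls against Medium 1 were made and none of the 4 against untreated Medium 2. After all libraries had been thinned to the lowest total, 11 and 2 calls were made, and without the filter on low counts 12 and 0. Leaving out a library gave 9 to 17 calls against Medium 1, with the count moved by more than 1.5 times without wells H7 or A8, and 0 to 3 against untreated Medium 2. In the 10 fits of that comparison PSMB1 passed in 5, PSMD13 in 3, PSMC6 in 2 and PSMA4 in 0.

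**Figure D5:**
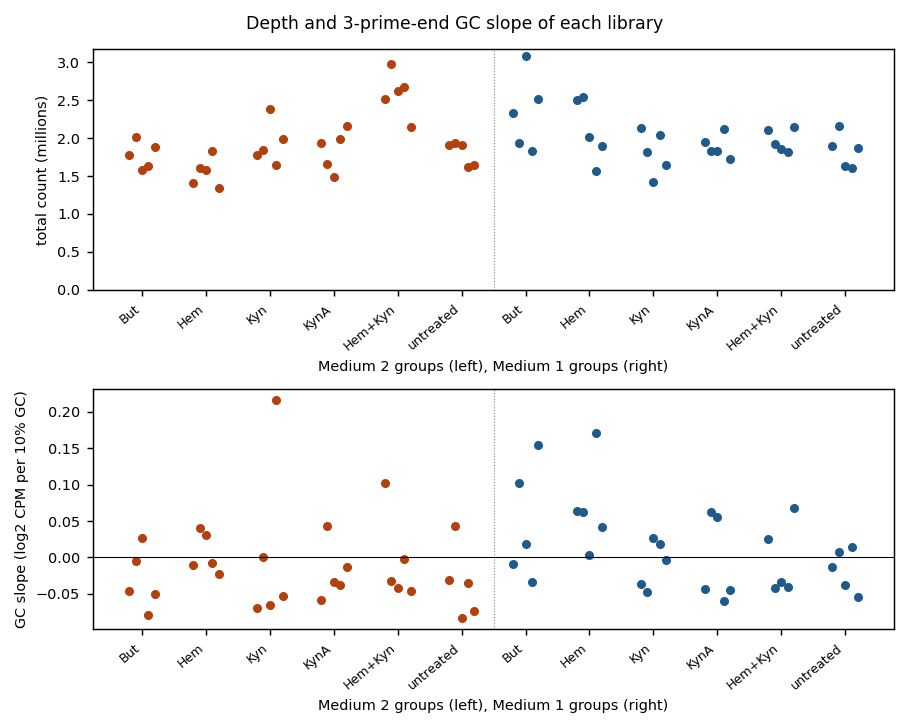
Total count (top) and slope of log2 CPM on 3' end GC content (bottom) of each of the 60 libraries, which are the points, with Medium 2 groups left of the dotted line and Medium 1 groups right of it. The Medium 2 group with hemin and kynurenine has the highest median total of the 12, and wells B2, F2 and A7 have slopes of 0.154, 0.171 and 0.217.

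In the other 9 comparisons of an exposure with untreated spheroids of the same medium, no member passed with edgeR, where at most 0.0354% of all tested genes were higher and at most 0.0177% lower. The comparisons of a medium share their untreated libraries. Hemin in Medium 1 came nearest, with 22 members at an unadjusted p below 0.05, beside 2422 of the 11298 tested genes. PSMB3 had the smallest p there, with a log2 fold change of -0.69 (adjusted p = 0.0609), followed by PSMD4 at 0.50 and PSMC3 at 0.65. DESeq2 gave 2 higher and 1 lower member for it. The other 8 had 0 to 9 members at an unadjusted p below 0.05, beside 362 to 955 of all tested genes, and 0 members by DESeq2. Without wells B2 and A7, 8 members were higher and 1 lower for hemin in Medium 1, but 0 either way when well F2 of that group was also left out or with the GC slope as a term. For hemin with kynurenine in Medium 2, 8 were higher without wells B2 and A7, 8 without F2 as well, and 5 with the GC slope as a term. The shares of all tested genes that passed were not counted in these alternative fits.

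Whether an exposure acted differently in the 2 media was tested as an interaction for each of the 5 exposures. No member passed with edgeR or with DESeq2, where at most 0.0266% of all tested genes did (0.0177% for kynurenine, 0 for butyrate, hemin and kynurenic acid). At an unadjusted p below 0.05 there were 13 members for hemin with kynurenine, 11 for hemin, 4 for kynurenic acid, 2 for butyrate and 0 for kynurenine. Of the 11298 tested genes there were 968, 1498, 521, 482 and 417 in the same order. The smallest p was that of PSMB1 with hemin and kynurenine, with a difference of responses of 0.92 on the log2 scale (SE 0.24, adjusted p = 0.202). The responses of the members to an exposure were therefore not shown to differ between the media.

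Kynurenic acid is formed from kynurenine by transamination and ring closure, and both were given at 1 µM over the same days. No member differed between them in Medium 2 or in Medium 1 with edgeR or DESeq2, where 0.00885% and 0.0266% of all tested genes did. At an unadjusted p below 0.05 there were 2 members in Medium 2 and 0 in Medium 1, beside 666 and 421 of the 11298 tested genes. Differences ran from -0.11 to 0.43 with a median of 0.09 in Medium 2, and from -0.44 to 0.23 with a median of -0.02 in Medium 1. The 95% interval of PSMB5 ran from -0.0015 to 0.43 in Medium 2 and from -0.06 to 0.38 in Medium 1, and that of PSMF1 from -0.33 to 0.15 in Medium 2 and from -0.25 to 0.25 in Medium 1. Over all members the intervals reached from -0.52 to 0.87 in Medium 2 and from -0.92 to 0.55 in Medium 1, so differences of such sizes remain possible for single members.

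Genes that work beside the proteasome were followed in the averaged medium comparison as well, where 22.7% of all tested genes were higher and 23.3% lower. Of 11 tested genes for assembly or association with the proteasome, 5 were higher in Medium 2 and 1 lower, with a median log2 fold change of 0.15. ZFAND5, a ubiquitin-binding protein that associates with the proteasome, rose by 0.36, the ubiquitin ligase UBE3C by 0.18 and the proteasome-bound deubiquitinase USP14 by 0.20 (adjusted p = 0.000327, 0.000578 and 0.000831). Of 7 tested genes for transcription of the subunits, 5 were higher and 1 lower, with a median of 0.25. NFYA and NFYC, parts of the factor that binds CCAAT boxes, rose by 0.78 and 0.37, and NFE2L2, a factor that binds antioxidant response elements, rose by 0.30 (adjusted p = 9.1e-07, 0.000284 and 0.000285). The factor NFE2L1 rose by 0.20 (adjusted p = 0.000291), whereas NGLY1, which removes sugars from its protein, fell by 0.22 (adjusted p = 0.0436).

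Of 15 tested genes for ubiquitin and its shuttles, 8 were higher and 2 lower, with a median of 0.12. HERPUD1, of degradation at the endoplasmic reticulum, rose by 2.34 (adjusted p = 4.28e-38). RPS27A, a ubiquitin and ribosomal fusion gene with many near-identical copies and so uncertain, rose by 0.39 (adjusted p = 5.52e-11). The activating enzyme UBA6 fell by 0.46 (adjusted p = 1.23e-10), whereas another, UBA1, rose by 0.30 (adjusted p = 3.08e-05). Of 16 genes for interferon response and antigen presentation, 10 were higher and 2 lower, with a median of 0.22, beside the same shares of all tested genes. The interferon-induced genes IFIT3, IFIT1 and IFIT2 rose by 0.90, 0.76 and 0.92 (adjusted p = 1.93e-23, 2.61e-22 and 1.49e-19), whereas PSMB9 and PSMB10 did not pass. In Medium 2 with hemin and kynurenine against untreated Medium 2, none of the tested genes of these lists was higher, and 2 were lower, IFIT2 at -0.90 and IFIT3 at -0.48.

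Promoters were read for the 42 of 48 members with an entry among the RefSeq promoters of GRCh38.p14, in a window from 250 bases before the start to 50 after it. The letters TGACNNNGC, the core of the antioxidant response element, stood on either strand in 15 of 42 (35.7%), against 16.1% of the 27305 genes with an entry. They were in 3 of 16 members that rose in the averaged medium comparison (18.8%) and in 12 of 23 that were tested and did not pass (52.2%). The 6 members without an entry were all tested members that did not pass. CCAAT was in 47.6% of the 42 members and 39.7% of all genes with an entry, and the SP1 box GGGCGG in 69% and 48.3%. The interferon response element (GAAA, any 2 bases, GAAA) was in 16.7% and 4.38%. Split in the same way into members that rose and members that did not pass, CCAAT was in 56.2% and 43.5%. The SP1 box was in 62.5% and 73.9%, and the interferon element in 6.25% and 21.7%. These splits were not tested. A gene with several entries counted if any of them matched. Motifs were searched separately, so the same bases could count for more than 1 of them, and a match is not a shown binding site.

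The promoters below are of the activator pair PSME1 and PSME2, of the immunoproteasome gene PSMB10 and of the chaperone gene PSMD9. In the averaged medium comparison PSME1 and PSMD9 passed and PSME2 and PSMB10 did not, whereas with hemin and kynurenine PSME2 passed and PSME1 did not. Each is the 180 bases before the start, read 5' to 3' on the gene's strand, with capitals at each match on either strand to TGACNNNGC or to the interferon response element.
PSME1, chr14:24136014-24136193, plus strand: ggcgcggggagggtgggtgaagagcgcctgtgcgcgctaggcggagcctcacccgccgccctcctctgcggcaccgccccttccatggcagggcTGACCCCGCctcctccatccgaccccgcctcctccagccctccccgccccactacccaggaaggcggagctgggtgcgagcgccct
PSME2, chr14:24146611-24146790, minus strand: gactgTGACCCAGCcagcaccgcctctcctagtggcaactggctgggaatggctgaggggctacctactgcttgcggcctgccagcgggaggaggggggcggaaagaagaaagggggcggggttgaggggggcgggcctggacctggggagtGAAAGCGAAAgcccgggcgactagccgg
PSMB10, chr16:67936851-67937030, minus strand: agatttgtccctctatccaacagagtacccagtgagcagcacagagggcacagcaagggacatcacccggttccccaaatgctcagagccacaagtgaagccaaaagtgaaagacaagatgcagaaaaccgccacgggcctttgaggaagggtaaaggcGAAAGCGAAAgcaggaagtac
PSMD9, chr12:121888610-121888789, plus strand: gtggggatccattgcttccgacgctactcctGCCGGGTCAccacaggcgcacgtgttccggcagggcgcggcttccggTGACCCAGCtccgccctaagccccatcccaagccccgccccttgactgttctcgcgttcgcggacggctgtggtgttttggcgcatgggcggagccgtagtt
The interferon element lies 28 bases before the start in PSME2 and 21 before it in PSMB10. PSME1 has one as well, 6 bases after the start and so outside the stretch shown. The antioxidant core lies 86 bases before the start in PSME1, 175 before it in PSME2, and 149 and 102 before it in PSMD9. PSMB10 has no match to it in the window.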

How the data were processed

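Counts were deposited by the authors as estimated counts per gene for 29744 genes in 60 columns, made from 3' end libraries with unique molecular identifiers, per the labels' protocols. Per the submitters' processing notes, FastQC 0.11.9, cutadapt 3.4, UMI-tools 1.1.2, STAR and Salmon 1.5.2 were used with GRCh38. The sources used here give neither the annotation nor the use of strand nor how reads of near-identical copies were shared, and genes with pseudogene copies are therefore uncertain. In 10.1% of values the estimate was not whole (tolerance 1e-06), and all were rounded.

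Groups came from the sample titles. Columns carry a group and a well but no replicate number. Titles call the 5 samples of a group biological replicates, and no source used here says whether they came from separate cultures, and p-values then reflect only the spread among these libraries. All 120 within-group pairs differed by more than sampling noise (chi-square per degree of freedom 2.18 to 19.6).

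Genes were kept by edgeR's filterByExpr (minimum count 10, minimum total 15), scaled by TMM and fitted with a mean per group by edgeR 4.0.16 (robust quasi-likelihood, 48 residual degrees of freedom) in R 4.3.3. From this fit came 24 contrasts with two-sided F-tests and Benjamini-Hochberg adjustment over 11298 genes, with a threshold of 0.05. Every adjusted p given is from this test unless DESeq2 1.42.0 is named. Fold changes are on the log2 scale, the SE was derived from F as the size of the fold change over its root, and intervals cover 95%. CPM are counts scaled by library total and TMM factor. The procedure was tested on simulated data in which 100 genes changed by log2 0.3 and 100 by log2 1 between the media. In the averaged medium comparison 42 and 97 of them were recovered, and 4 unchanged genes passed. Between untreated groups 1 and 67 were recovered, and 5 unchanged genes passed. GC content was taken from the last 300 bases of the annotated transcripts of GRCh38, and a library's GC slope is that of log2 CPM over genes other than the members. Gene spans and promoters are from RefSeq.

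Any member could be named. Library values are given for PSMB5, PSMB9, PSMB10, PSME1, PSME2, PSMD4 and PSMD14, for the smallest p of each role, and for members called in an exposure comparison. The untreated examples and PSMA5, PSMB3, PSMD6, PSMC1 and PSMC3 under hemin were added after values were seen. Up to 3 genes per neighbouring list were named by p, with NFE2L1, NGLY1 and UBA1 added. Members and lists were chosen with earlier results of these data known. Alternatives were RLE and upper quartile scaling, no filter, plate row, thinning, only the compared groups, DESeq2, leaving out libraries, and, added after seeing the data, GC slope, log2 total, and removal of wells B2, F2 and A7.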

Additional observations from a re-analysis of the deposited data

Results flagged for a closer look

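Of 41 sets of 5 libraries examined, each 1 gene in 1 group, 3 held a library whose distance to its nearest neighbour was large against the range of the set (a share above 0.71). About 5% of sets would pass this limit by chance. PSMB3 in Medium 1 with hemin had 82.9 CPM in well G2, where the other 4 libraries had 40.95 to 49.4 CPM. PSMC1 in Medium 2 with hemin had 239 CPM in well E6, where the others had 306 to 328 CPM. PSME2 in untreated Medium 1 had 58.98 CPM in well E1, where the others had 90.5 to 98.5 CPM.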

How the results depend on the processing

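In 11 alternatives other than leaving out 1 library, 393 of 458 values kept their direction and side of the threshold or stayed within the limits set for counts, and 65 did not. The number of members higher in Medium 2 averaged over treatments stayed between 12 and 21, that of lower members at 0, and leaving out 1 library gave 14 to 19 and 0. Between untreated groups the number of higher members was 1 with GC slope as a term, 2 with only the compared groups and 0 to 1 when a library was left out (1 without well B1), against 0. Calls within the 5 exposures were 22 with log2 total as a term and 32 to 43 when a library was left out, against 38. Calls of exposures against untreated spheroids, 4 in all, became 7 with DESeq2, 7 with only the compared groups, 17 without wells B2 and A7, 8 without B2, F2 and A7, 2 after thinning, 0 without the filter, 0 with log2 total as a term and 0 to 18 when a library was left out (18 without well G2, 13 without B2). Interaction calls became 1 with only the compared groups and 0 to 1 when a library was left out (1 without well G2), against 0. The difference of PSMB10 averaged over treatments turned to 0.0042 with GC slope as a term (adjusted p = 0.975). The causes of these shifts were not tested. All shares of all tested genes given above are from the main fit, so a shift in member calls cannot be set against a shift over all genes. The filter on low counts left PSMB8, with at most 6 counts in a library, PSMB11 and PSMA8 untested. No paired analysis was possible because the columns carry no replicate number.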
